A study of Caenorhabditis elegans with 12 samples.

Results

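The miR-63 family of Caenorhabditis elegans was taken as 5 microRNA hairpins: cel-mir-63, and the clustered hairpins cel-mir-229, cel-mir-64, cel-mir-65 and cel-mir-66, written below without the species prefix. They were picked by name as 5 of the 250 rows of a table of reads per hairpin, and all 5 passed the filter on low counts. The table holds 12 small RNA libraries of whole hermaphrodites of N2, the wild-type strain, in 4 groups of 3: day 5 or day 15 of age, after 0.1% DMSO or after rotenone at 100 nM for 24 hours from the L4 larval stage. Rotenone blocks complex I of the mitochondrial electron transport chain, and DMSO is the solvent used for the controls. The sources used here do not say from which event the days are counted, nor whether the 3 libraries of a group are separate cultures, so p-values measure the spread between these libraries, which may be technical. Reads summed to between 4215830 and 11045174 per library, and libraries of day 15 were shallower (at most 5989717) than those of day 5 (at least 8845726).

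A microRNA is cut from a hairpin precursor and guides an Argonaute protein to messenger RNAs, mostly through its seed, the bases near its 5′ end. The members of this family are grouped because their main mature products share a seed, so that they can in principle act on the same sites, while their 3′ parts differ. The mature products of mir-64 and mir-65 are nearly identical along their whole length, and the sources used here do not say how the authors assigned reads that match both. The split of reads between mir-64 and mir-65 is uncertain for that reason. Hairpins that lie close together on 1 strand are often cut from a common primary transcript.

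In the WBcel235 annotation, 4 of the members lie on the plus strand of chromosome III within 755 bases: mir-229 (2172452 to 2172566), mir-64 (2172848 to 2172957), mir-65 (2173002 to 2173101) and mir-66 (2173108 to 2173206). The gaps between neighbours are 281, 44 and 6 bases. The whole cluster sits in 1 intron (2168149 to 2174577) of gcn-1, a protein-coding gene on the same strand, and touches no exon of it. The hairpin mir-63 lies apart on chromosome X, minus strand, between genes, at 17598765 to 17598868, 1618 bases from lec-9, its nearest protein-coding neighbour. The annotation gives a mature product on each arm of every hairpin. Those of the 5′ arm are 23 bases long in mir-63, mir-64, mir-65 and mir-66 and 26 in mir-229. Those of the 3′ arm are 24 bases long in mir-63, 21 in mir-64, mir-65 and mir-66 and 22 in mir-229. The table counts both arms of a hairpin together.

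Together the 5 hairpins held 4.92 ± 0.35% of the hairpin reads in day 5 DMSO, 4.46 ± 0.12% in day 5 rotenone, 4.79 ± 0.26% in day 15 DMSO and 4.53 ± 0.18% in day 15 rotenone (SD, n = 3). This sum covered members of very different level. Over the 12 libraries mir-64 and mir-65 ranked 16 and 18 among the 238 hairpins with a read, mir-229 ranked 31, mir-66 ranked 35 and mir-63 ranked 54. In day 5 DMSO, mir-64 made up 40.7% of the family's reads, mir-65 37.2%, mir-229 12.8%, mir-66 7.70% and mir-63 1.64%. The lowest count of any member in any library was 1758, for mir-63. The spread between libraries ran from 0.510% to 6.53% (coefficient of variation within a group). Read counts order the hairpins by reads, not by molecules, since small RNA libraries do not capture every sequence equally.

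The order of the members was steady with 1 exception. Reads of mir-64 exceeded those of mir-65 in 12 of 12 libraries, by a ratio of 1.06 to 1.24, and mir-65 exceeded mir-229 in 12 of 12. At day 5, mir-229 exceeded mir-66 by 1.60 to 1.86 times. At day 15 they came close, at 1.05 to 1.09 times in DMSO and 0.991 to 1.17 times in rotenone, and mir-66 was the higher of the pair in 1 library.

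**Figure D1:**
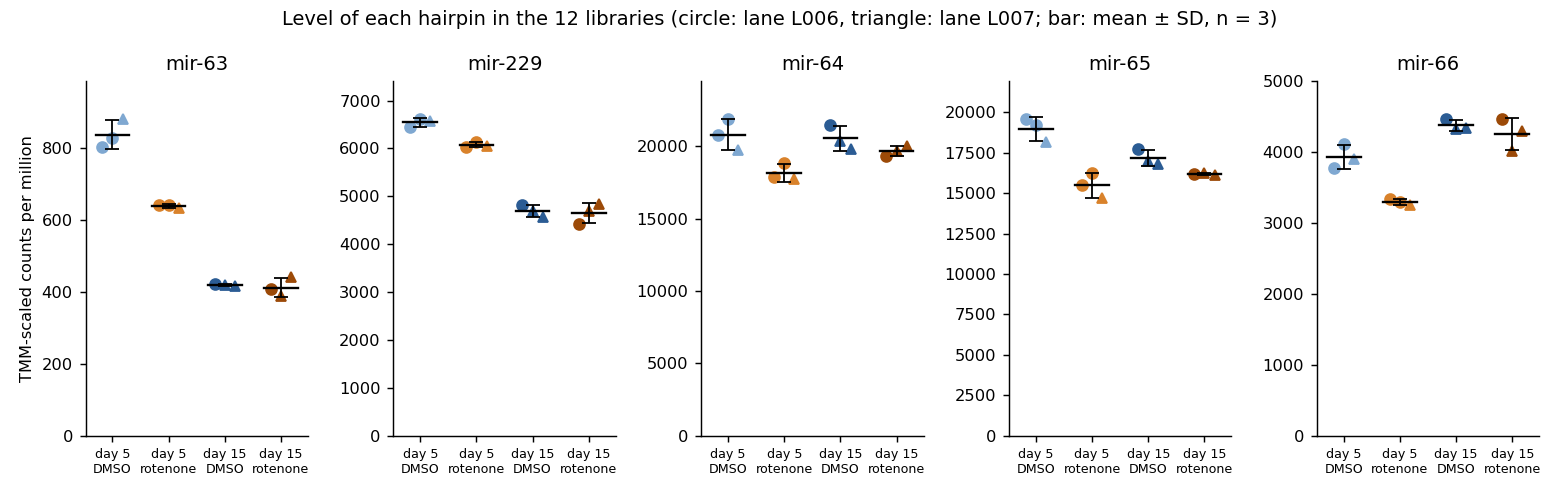
Level of each hairpin in CPM scaled by TMM (y axis, from 0, a separate scale for each hairpin) in the 4 groups (x axis). Points are libraries, circles from lane L006 and triangles from lane L007, and bars are the mean ± SD of 3. The hairpin mir-63 stands near 837 in day 5 DMSO and near 419 in day 15 DMSO, while mir-64 stays between 17726 and 21890 in all 12 libraries.

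With age the members went different ways. From day 5 to day 15 in DMSO, mir-63 fell to about 50% of its level and mir-229 to 72%, while mir-66 rose 1.11-fold, and mir-64 had a fold of 0.988 that did not pass the test. Levels here are CPM (counts of a hairpin relative to the library's total) scaled by TMM, a factor per library that assumes most hairpins do not change, and are relative to the other hairpins. Changes were tested by edgeR's quasi-likelihood test over all 12 libraries. A change was called where its p, adjusted by Benjamini-Hochberg across 181 tested hairpins, was under 0.05. Of all hairpins 80.1% were called in this comparison, 38.1% higher and 42.0% lower, so the count of members called, 1 higher and 3 lower, is near that background. With so many called, the assumption behind TMM is in doubt for the comparisons of age. The settings tried moved the median of all hairpins by 0.10 on the log2 scale here, so smaller changes depend on the scaling. Libraries of the ages did not overlap for 1 member that was higher and 3 that were lower, beside 38.7% and 42% of all hairpins.

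For mir-63, the member on chromosome X, the day 5 DMSO libraries had 801, 829 and 880 CPM and the day 15 DMSO libraries 423, 419 and 415. Every day 15 library lay far below every day 5 library. The change was -0.998 ± 0.07 on the log2 scale (SE, 95% interval -1.13 to -0.86, adjusted p = 1.20e-13, edgeR). For mir-229, the first hairpin of the cluster, the values were 6442, 6614 and 6583 CPM at day 5 and 4819, 4703 and 4564 at day 15. Again the groups did not overlap, with a change of -0.48 ± 0.06 (interval -0.60 to -0.36, adjusted p = 5.69e-08, edgeR).

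The other clustered hairpins moved little in DMSO. For mir-66, the last of the cluster, the day 5 libraries had 3780, 4124 and 3904 CPM and the day 15 libraries 4470, 4333 and 4344, which is a rise of 0.16 ± 0.06 (adjusted p = 0.0255, edgeR). All 3 old libraries lay above the 3 young ones, by a margin smaller than the range of the day 5 libraries. Its call ended without day 5 DMSO replicate 1 (0.13, adjusted p = 0.0851, edgeR) or replicate 3 (0.15, adjusted p = 0.0557, edgeR). For mir-65 there were 19585, 19235 and 18151 CPM at day 5 and 17708, 16977 and 16792 at day 15, a change of -0.15 ± 0.06 (adjusted p = 0.0409, edgeR). That call was lost in 7 of 9 alternative scalings, filters, tools and models, with adjusted p up to 0.880. It was also lost without any 1 of 6 libraries: day 5 DMSO replicates 1 and 2, day 5 rotenone replicate 1 and the 3 of day 15 DMSO (-0.16 to -0.12, adjusted p = 0.0543 to 0.123, edgeR). For mir-64 the groups overlapped, at 20763, 21890 and 19747 CPM against 21492, 20348 and 19800, with a change of -0.02 ± 0.07 and an interval of -0.15 to 0.12.

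The same comparison in worms that had been given rotenone again had mir-63 and mir-229 lower and mir-66 higher at day 15. In this comparison 75.1% of all hairpins were called, 37.6% in each direction, and 1 member rose and 2 fell. Without overlap between the ages, 2 members were higher and 2 lower, beside 38.1% and 35.9% of all hairpins. For mir-63, 641, 641 and 633 CPM at day 5 stood against 407, 387 and 440 at day 15, a change of -0.63 ± 0.07 (adjusted p = 1.70e-09, edgeR). For mir-229, 6034, 6132 and 6054 CPM stood against 4431, 4684 and 4836, a change of -0.39 ± 0.06 (adjusted p = 2.22e-06, edgeR). Both pairs of groups were well apart. For mir-66, 3338, 3293 and 3259 CPM stood against 4470, 4013 and 4297, a rise of 0.37 ± 0.06 (adjusted p = 5.64e-06, edgeR). The values of mir-64 (0.12 ± 0.07, adjusted p = 0.111, edgeR) and mir-65 (0.07 ± 0.06, adjusted p = 0.359, edgeR) did not pass.

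Averaged over both treatments, the change with age was -0.82 ± 0.05 for mir-63, -0.43 ± 0.04 for mir-229, 0.05 ± 0.05 for mir-64, -0.04 ± 0.05 for mir-65 and 0.26 ± 0.04 for mir-66, beside a median of 0.05 over the 181 hairpins. Of these mir-63, mir-229 and mir-66 were called (adjusted p = 2.47e-15, 4.05e-10 and 4.06e-06, edgeR), against 85.1% of all hairpins. These 3 calls were made with every other scaling, filter, tool and model tried, 9 in all, and without each library in turn. With age in DMSO, 6 of 7 tissue marker hairpins (muscle, intestine, glia, neurons) fell and mir-246 of the gonadal sheath rose. In that comparison 42.0% of all hairpins were called lower and 38.1% higher. The summed markers held 4.49 to 5.52% of reads in day 5 DMSO and 5.72 to 6.51% in day 15 DMSO, and none was at 0. That sum pools mir-246, up by 1.03 on the log2 scale, with the 6 that fell, so it does not show their fall. The miR-35 family of oocytes and embryos went from 8.70 ± 0.60% to 16.3 ± 0.68% of reads. The part of these shifts in the members' changes was not tested, and in whole worms fewer cells of a type and less RNA per cell cannot be told apart.

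**Figure D2:**
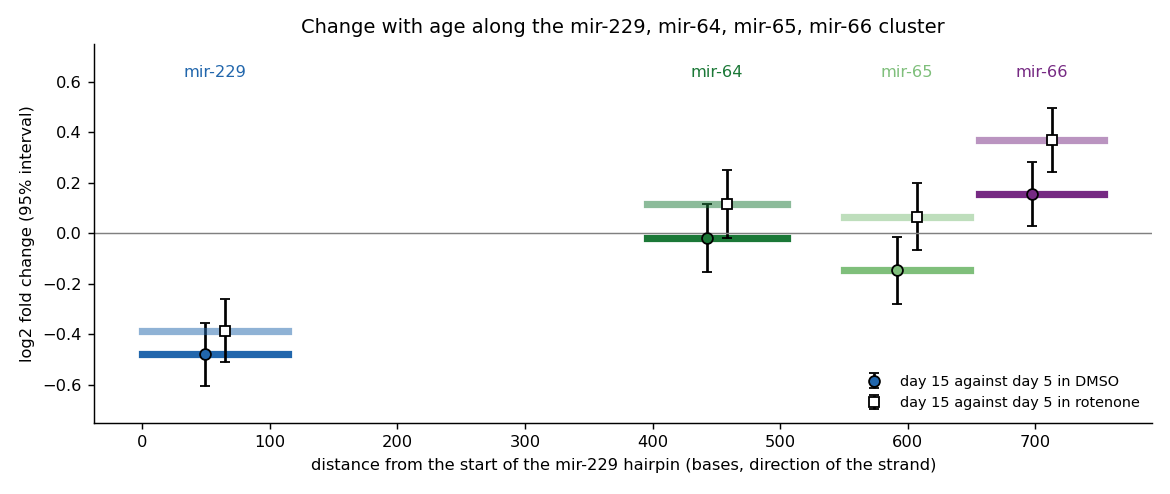
The 4 clustered hairpins placed by distance in bases from the start of mir-229 (x axis), at the height of their log2 fold change from day 5 to day 15 (y axis). Circles and solid bars are DMSO, squares and pale bars rotenone, and error bars 95% intervals. The first hairpin fell (-0.48 and -0.39), the last rose (0.16 and 0.37), and mir-64 and mir-65 lay between them.

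Ratios of raw counts within a library need no scaling between libraries, but they come from the same counts and libraries as the fits above. As a share of the reads of mir-64 plus mir-65, mir-63 stood at 2.11 ± 0.19% in day 5 DMSO and 1.90 ± 0.06% in day 5 rotenone, against 1.11 ± 0.03% and 1.15 ± 0.07% at day 15 (SD, n = 3). The lowest library of day 5 (1.83%) was above the highest of day 15 (1.22%). On the same scale mir-229 went from 16.5 ± 0.78% and 18.1 ± 0.59% at day 5 to 12.5 ± 0.15% and 13.0 ± 0.46% at day 15. In the other direction, mir-66 went from 9.90 ± 0.48% and 9.81 ± 0.37% to 11.6 ± 0.23% and 11.9 ± 0.71%.

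An exact permutation test, two-sided, moved the age labels within each treatment, which gives 400 arrangements and a smallest p of 0.005. With 4 ratios and 2 factors there were 8 tests, adjusted together by Benjamini-Hochberg. The log2 difference with age was -0.82 for mir-63, -0.44 for mir-229 and 0.25 for mir-66 relative to mir-64 plus mir-65, each with the smallest p of 0.005 (exact permutation, adjusted p = 0.0133). Each had the same sign within both treatments and within both lanes. The ratio of mir-64 to mir-65 also differed with age, by 0.09 (exact permutation p = 0.01, adjusted p = 0.02), with 1.10 ± 0.04 at day 5 and 1.20 ± 0.02 at day 15 in DMSO, and 1.17 ± 0.03 and 1.22 ± 0.02 after rotenone. The 4 hairpins of the cluster therefore did not keep fixed proportions of reads between the ages. Over both treatments 85.1% of all hairpins were called with age (edgeR), and ratios among other hairpins were not tested. So this is not shown to be particular to the cluster. The summed reads of mir-64 and mir-65 changed by 0.01 ± 0.04 with age, so the ratios to that sum largely repeat the edgeR changes of mir-63, mir-229 and mir-66.

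**Figure D3:**
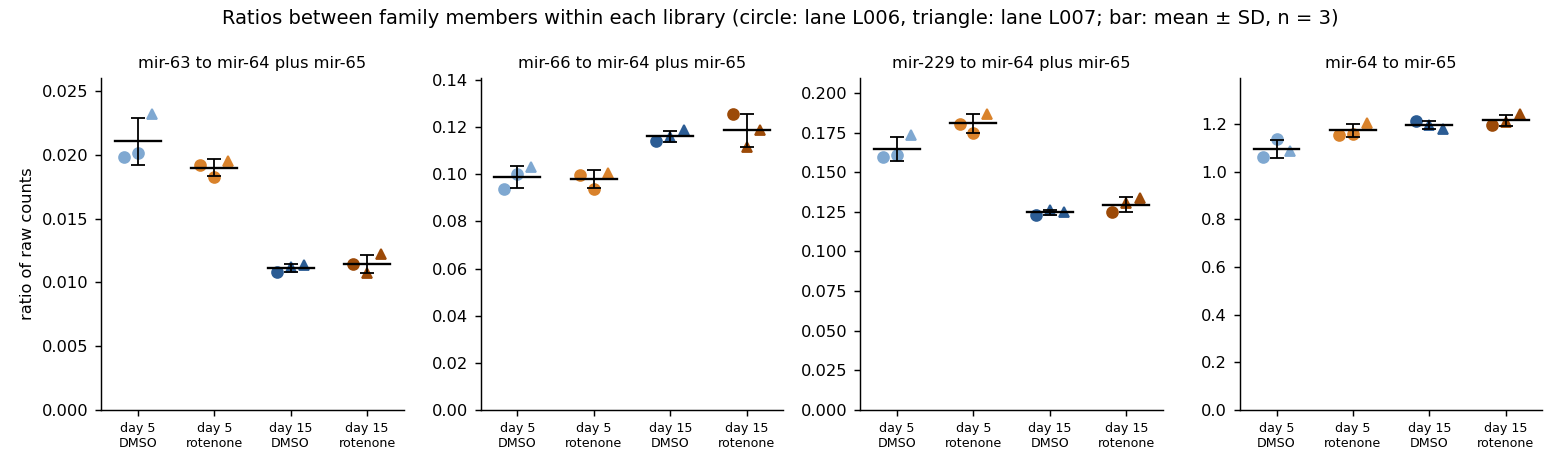
Ratios of raw counts between members in each library (y axis, from 0, with no unit) for the 4 groups (x axis). Points are libraries by lane and bars the mean ± SD of 3. The mir-63 ratio falls from 0.0183 or more in each day 5 library to 0.0122 or less in each day 15 library, mir-229 falls by less and mir-66 rises.

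Rotenone was compared with DMSO at each age. At day 5 the members were lower after rotenone, mir-63 most (1.31-fold), then mir-65 (1.23-fold), mir-66 (1.19-fold) and mir-64 (1.15-fold), while mir-229 had a 1.08-fold lower level that did not pass. That is 4 of 5 members lower and 0 higher, beside 25.4% of all hairpins called, 19.3% lower and 6.08% higher. The median change was -0.26 over the members and -0.04 over the 181 hairpins.

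For mir-63 the 3 rotenone libraries, at 641, 641 and 633 CPM, lay together and below the 3 DMSO libraries, at 801, 829 and 880. The change was -0.39 ± 0.06 (interval -0.52 to -0.26, adjusted p = 8.99e-05, edgeR). For mir-65, 15503, 16233 and 14692 CPM in rotenone stood below 19585, 19235 and 18151 in DMSO, a change of -0.30 ± 0.06 (adjusted p = 0.00133, edgeR). For mir-66, 3338, 3293 and 3259 CPM stood below 3780, 4124 and 3904, a change of -0.26 ± 0.06 (adjusted p = 0.00284, edgeR). These groups were separate for each of the 3 hairpins.

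For mir-64 the rotenone libraries had 17918, 18836 and 17726 CPM and the DMSO libraries 20763, 21890 and 19747, a change of -0.20 ± 0.07 (adjusted p = 0.0294, edgeR). Its call was lost without any 1 of 9 libraries (-0.20 to -0.15, adjusted p = 0.0512 to 0.114, edgeR) and stayed without day 5 DMSO replicate 3, day 5 rotenone replicate 2 or day 15 rotenone replicate 3. For mir-229, 6034, 6132 and 6054 CPM in rotenone against 6442, 6614 and 6583 in DMSO gave -0.11 ± 0.06 (interval -0.23 to 0.02, adjusted p = 0.189, edgeR). With mir-64 and mir-65 counted as 1 row, the pair had -0.22 ± 0.06 (adjusted p = 0.00941, edgeR).

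On TMM-scaled levels all 5 members had rotenone libraries below every DMSO library of day 5, as had 27.6% of the 181 hairpins, while 12.2% lay above. With CPM by library size alone this held for 3 members, and the libraries of mir-64 and mir-229 overlapped. The scaling mattered because the changes were small: across the scalings, filters, tools and models tried, the median of all hairpins lay between -0.04 and 0.12, a shift of 0.17. Relative to that median, mir-63 stood at -0.35 to -0.31, mir-65 at -0.26 to -0.21, mir-66 at -0.22 to -0.17, mir-64 at -0.16 to -0.11 and mir-229 at -0.07 to -0.02. A call for mir-63 was made in 10 of 10 such settings, for mir-65 in 7 of 9, for mir-66 in 6 of 10 and for mir-64 in 3 of 9. With a stricter filter (a mean of at least 10 CPM) mir-63 was the member called lower, the change of mir-64 turned to 0.014 and that of mir-229, called in neither fit, to 0.10, and of the 131 hairpins left 43 were called higher and 5 lower, against 11 and 35 of 181. That split was 23 and 17 with library size alone, 29 and 14 without the 3 most abundant hairpins, 23 and 18 without a filter, 21 and 25 in a fit of the day 5 groups alone, 17 and 29 with RLE factors and 18 and 31 with DESeq2.

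**Figure D4:**
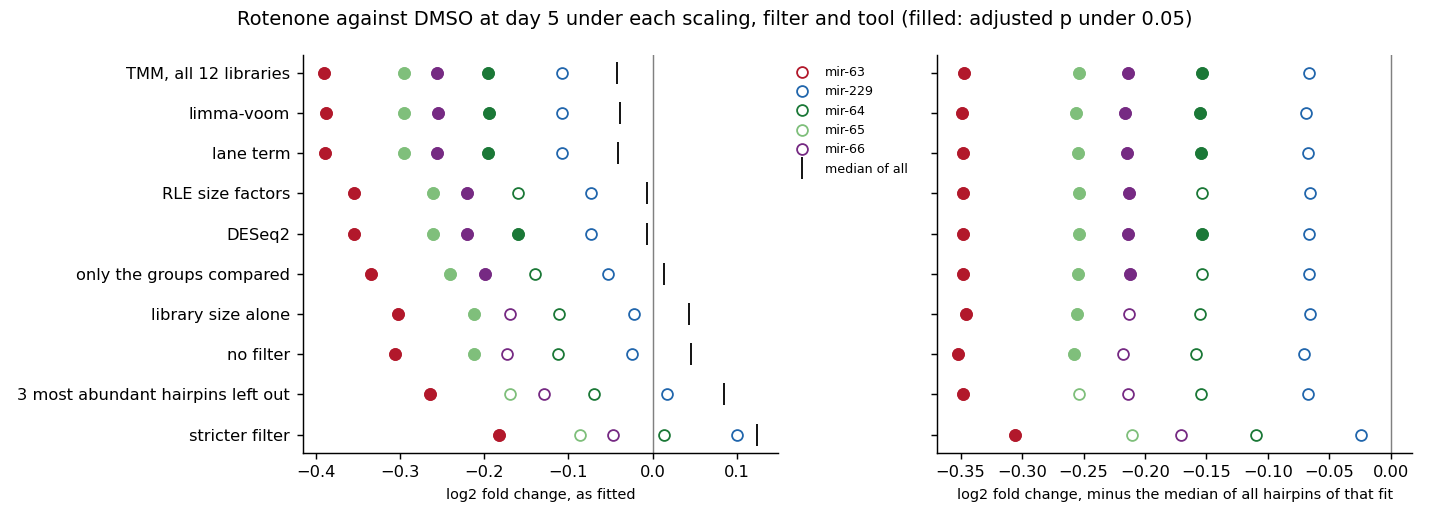
Change of each hairpin after rotenone at day 5 (x axis, log2 fold change) under 10 scalings, filters, tools and models (y axis), as fitted (left) and minus the median of all hairpins of that fit (right). Filled points have an adjusted p under 0.05 and black ticks mark the median. The points move right together from the first row to the last, mir-63 stays filled throughout, and the distances between members hardly change.

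Of the 4 ratios 2 differed with rotenone over both ages, and mir-63 and mir-66 relative to mir-64 plus mir-65 did not pass (exact permutation p = 0.405 and 0.81). For mir-63 the log2 difference was -0.15 at day 5 and 0.04 at day 15, and for mir-66 -0.01 and 0.03. The ages were not tested apart. The ratio of mir-229 to mir-64 plus mir-65 was higher by 0.10 on the log2 scale (exact permutation p = 0.02, adjusted p = 0.032), by 0.13 at day 5 and 0.06 at day 15. Without day 5 rotenone replicate 1 or replicate 3 the adjusted p was 0.064 (exact permutation, differences of 0.10 and 0.08). The ratio of mir-64 to mir-65 was higher by 0.06 (exact permutation p = 0.025, adjusted p = 0.0333), by 0.10 at day 5 and 0.02 at day 15. It missed the threshold without any 1 of 5 libraries, the 3 of day 5 rotenone and replicate 3 of each day 15 group (0.05 to 0.07, exact permutation, adjusted p = 0.0667 to 0.0867).

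Other hairpins moved at day 5 as well. Among all hairpins, 19.3% were called lower and 6.08% higher. Of 7 tissue markers 2 fell, mir-1 of muscle (-0.24 ± 0.09, adjusted p = 0.0435, edgeR) and mir-60 of intestine (-0.22 ± 0.07, adjusted p = 0.0193, edgeR). The summed markers held 4.49 to 5.52% of reads in DMSO and 4.84 to 5.68% in rotenone, with none at 0, and their part in the members' change was not tested. Of the other seed families with clustered hairpins, the miR-35 family had 3 of 8 members higher and a median of 0.18, the miR-51 family 1 of 6 higher and a median of 0.02, and the miR-72 family 0 of 3 called and a median of 0.04. The fits by lane gave mir-63 at -0.30 ± 0.05 in L006 (adjusted p = 6.13e-07, edgeR) and -0.44 ± 0.11 in L007, where each day 5 group has 1 library (adjusted p = 0.130, edgeR).

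At day 15 the difference was no longer seen. The members had log2 changes of -0.08 to -0.01 after rotenone, and none was called (adjusted p = 0.968 for each, edgeR), nor was any of the 181 hairpins, which is 0% of them, with 3 at an unadjusted p under 0.05 (DESeq2 and limma-voom also gave 0 calls, and 3 each at that p). Within lane L006, which has 1 library of each day 15 group, 3 of 187 hairpins were called higher and 24 had an unadjusted p under 0.05 (edgeR), and no member was called. For mir-63, 407, 387 and 440 CPM in rotenone enclosed 423, 419 and 415 in DMSO, a change of -0.03 ± 0.07 with an interval of -0.16 to 0.11. That interval leaves out the day 5 change of -0.39. The day 15 intervals of mir-65 (-0.22 to 0.05) and mir-66 (-0.17 to 0.09) also leave out their day 5 changes. Those of mir-64 (-0.1961 to 0.0742) and mir-229 (-0.14 to 0.11) include their day 5 changes of -0.1959 and -0.11. For mir-64 and mir-229 a loss of the difference by day 15 is therefore not shown. For mir-65 the rotenone libraries, at 16191, 16276 and 16110 CPM, lay just below the DMSO libraries, at 17708, 16977 and 16792, with -0.08 ± 0.06, without overlap, as 2.21% of all hairpins lay lower and 3.87% higher.

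**Figure D5:**
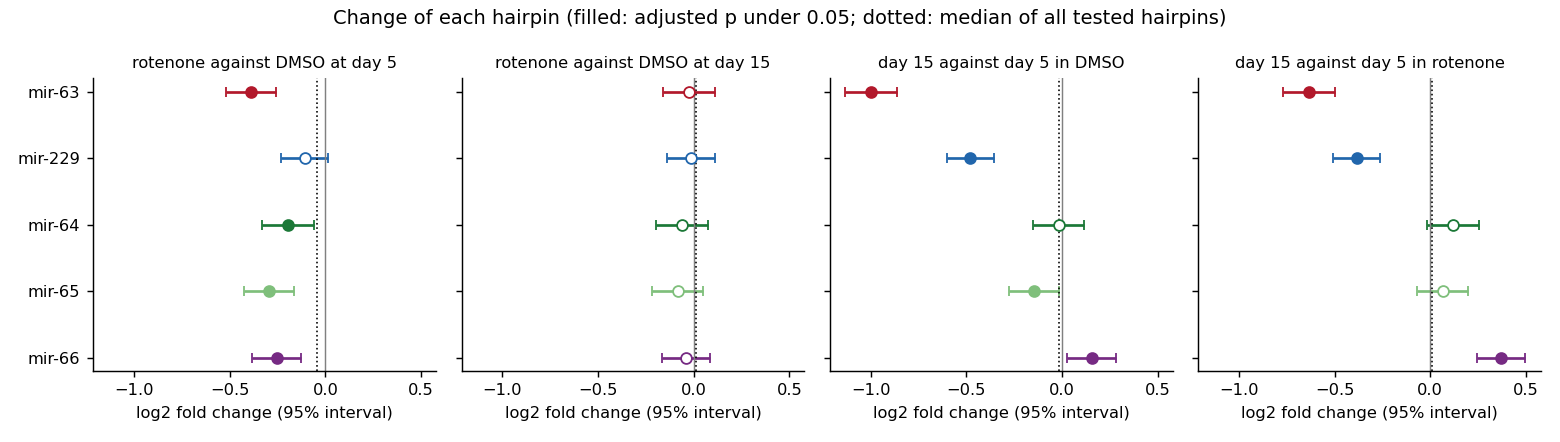
Log2 fold change of each hairpin with its 95% interval (x axis) in the 4 comparisons (panels). Filled points have an adjusted p under 0.05, and the dotted line is the median of all 181 hairpins. The members lie left of 0 after rotenone at day 5, near 0 at day 15, and spread from -0.998 to 0.16 with age in DMSO.

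The difference between the ages was tested by the interaction. For mir-63 the rotenone effect at day 15 exceeded that at day 5 by 0.36 ± 0.09 (interval 0.17 to 0.55, adjusted p = 0.0152, edgeR), beside 6.63% of all hairpins called, 4.97% higher and 1.66% lower. The same term is the difference between its fall with age in DMSO (-0.998) and in rotenone (-0.63). The call ended without day 15 DMSO replicate 3 (0.33, adjusted p = 0.0535, edgeR) or day 15 rotenone replicate 3 (0.27, adjusted p = 0.0610, edgeR). Other losses came with library size alone, without a filter, with the stricter filter and without mir-82, mir-72 and mir-58a, the 3 most abundant hairpins (0.17 to 0.26, adjusted p = 0.0752 to 0.223, edgeR). Over all hairpins the interaction calls split into 9 higher and 3 lower, 4 and 7 with library size alone, 3 and 10 without the 3 most abundant hairpins and 3 and 19 with the stricter filter. For the others the differences were 0.21 ± 0.09 for both mir-65 and mir-66, 0.13 ± 0.09 for mir-64 and 0.09 ± 0.09 for mir-229, and none passed (adjusted p = 0.132 to 0.558, edgeR). Averaged over both ages, rotenone gave -0.21 ± 0.05 for mir-63, -0.19 ± 0.05 for mir-65 and -0.15 ± 0.04 for mir-66, which were called (adjusted p = 0.00730, 0.00810 and 0.0213, edgeR). Of all hairpins 12.2% were called, 9.39% lower and 2.76% higher. With the stricter filter that split of all calls went from 5 higher and 17 lower to 28 and 2, and without the 3 most abundant hairpins to 17 and 5. Among the other scalings, filters, tools and models, single lanes aside, the call of mir-63 was kept in 8 of 9, that of mir-65 in 6 of 8 and that of mir-66 in 5 of 9. For mir-63 the average joins a change of -0.39 at day 5 with -0.03 at day 15. The call of mir-65 also ended without day 15 DMSO replicate 1 (-0.15, adjusted p = 0.0692, edgeR). That of mir-66 ended without any 1 of 6 libraries, which were day 5 rotenone replicates 1 and 3, the 3 of day 15 DMSO and day 15 rotenone replicate 2 (-0.15 to -0.09, adjusted p = 0.0516 to 0.140, edgeR).

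The mir-229 cluster was set beside clusters of the miR-35, miR-51 and miR-72 families, and any others in the table were not compared. With age in DMSO its 4 hairpins spanned 0.63 on the log2 scale, with 1 called higher and 2 lower, beside 38.1% and 42.0% of all hairpins. The 7 hairpins of the mir-35 to mir-41 cluster spanned 1.11, with 7 higher. The mir-54 to mir-56 cluster spanned 0.11, with 3 of 3 higher, and mir-73 and mir-74 lay 0.61 apart, with 1 lower. After rotenone at day 5 these spans were 0.19, 0.20, 0.13 and 0.09. The difference between clusters was not tested.

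Outside the family, the hairpins whose log2(CPM + 1) over the 12 libraries was most like each member were found by Pearson's r, given as a description since the libraries fall into 2 ages and share their scaling. The pattern of mir-63 was closest to that of mir-71 (r = 0.993), which fell by 1.36 with age over both treatments and by 0.69 after rotenone at day 5 (log2 scale), followed by mir-1020 and mir-70 (0.978 and 0.977). With each library taken as its deviation from its group mean, mir-63 and mir-71 had r = 0.19, so the 0.993 mostly reflects differences between the groups. The hairpin mir-71 is known in C. elegans for its part in lifespan, and no link to mir-63 was tested. Closest to mir-229 were mir-70, mir-47 and mir-1020 (0.988 to 0.990), to mir-64 the near-identical mir-5592-1 and mir-5592-2 and mir-238 (0.931 to 0.954), to mir-65 mir-355, mir-5592-1 and mir-238 (0.798 to 0.873) and to mir-66 mir-48, mir-75 and mir-77 (0.906 to 0.940). Over all these pairs with hairpins outside the family, deviations from group means gave r from -0.40 (mir-66 and mir-77) to 0.91 (mir-64 and mir-238). Within the family mir-63 and mir-229, on different chromosomes, had r = 0.980 over the 12 libraries. Between mir-229 and its neighbours in the cluster r was -0.10 for mir-64, 0.33 for mir-65 and -0.68 for mir-66, and mir-64 and mir-65 had 0.84. That last value may depend on how reads matching both were assigned, which was not tested.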

How the data were processed

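The authors deposited 1 table of raw read counts per microRNA hairpin, 250 rows by 12 libraries, from small RNA libraries. Tools listed in the submitters' processing notes, with no role or order, are SAMtools 1.3.1-9, BWA 0.7.12-r1039, Trimmomatic 0.36 and bcl2fastq 1.8.4. The genome build, the hairpin reference and the rule for reads that match several hairpins: not given in the sources used here. Groups and lanes (L006, L007) came from the labels. Replicates were numbered by accession, which pairs nothing.

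Counts were tested with edgeR 4.0.16 (R 4.3.3): filterByExpr with a minimum count of 10, TMM, and a quasi-likelihood F test on 4 group means over 12 libraries, which left 8 residual degrees of freedom. The filter kept 181 hairpins, and the 69 others held 0.00172% of reads. The SE is the log2 fold change divided by the square root of F. A count of 3 is 0.272 to 0.712 CPM. Alternatives used DESeq2 1.42.0, limma 3.58.1 voom, RLE factors, library size alone, other filters, a lane term, each lane alone, only the groups compared, mir-64 and mir-65 summed, and each library left out. The edgeR and permutation code was tested on simulated data. By rule the 5 members are named in every comparison, and for likeness the 3 hairpins with the highest r per member. The members and lists were chosen with earlier results of these data known. Each pair of libraries in a group differed by more than sampling noise (chi-square per degree of freedom 23.9 to 347). Positions are from the Ensembl annotation of WBcel235, matched by hairpin name. Sequences are not used here.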

Additional observations from a re-analysis of the deposited data

Results flagged for a closer look

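The effect of rotenone on mir-63 differed between the ages by an interaction term: the change at day 15 minus the change at day 5 was 0.36 ± 0.09 in log2 units (adjusted p = 0.0152, edgeR). The levels behind it were 837 ± 39.9 CPM in DMSO and 639 ± 4.67 in rotenone at day 5, and 419 ± 3.93 and 411 ± 26.9 at day 15 (SD, n = 3). The call was lost with library size alone, no filter, the stricter filter or without the 3 most abundant hairpins (0.17 to 0.26, adjusted p = 0.0752 to 0.223, edgeR). It was also lost without either of 2 libraries. Within lane L006 the difference was 0.36 ± 0.10 and within lane L007 0.41 ± 0.14. Groups of 3 libraries are too small for a test of single libraries that stand apart.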

How the results depend on the processing

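Of the members, 4 were called lower after rotenone at day 5. That number was 2 with library size alone or no filter, 1 without the 3 most abundant hairpins or with the stricter filter, 0 within lane L007, and from 3 to 4 when a library was dropped. The change of mir-64 turned to 0.014 with the stricter filter, and that of mir-229, not called in any setting, to 0.10. The 1 member called higher with age in DMSO became 0 within L007, and 0 to 1 without single libraries. The 1 called higher with age in rotenone became 2 with DESeq2, the lane term, lane L006 alone or only the groups compared, where mir-64 was added. The 1 called in the interaction became 0 with library size alone, no filter, the stricter filter, without the 3 most abundant hairpins and within L007, 2 within L006, and 0 to 1 without single libraries. The 3 called lower with rotenone over both ages became 1 without the 3 most abundant hairpins, 0 with the stricter filter and within each lane, and 1 to 4 without single libraries. Leaving out those hairpins put the members' share of reads at 7.67% and 6.80% at day 5 (DMSO, rotenone) and 7.23% and 6.82% at day 15, by construction. Without single libraries the rotenone difference of the mir-229 ratio ran from 0.083 to 0.115 and that of mir-64 to mir-65 from 0.050 to 0.076. Other causes were not tested.

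Relative to the median of all hairpins, which the settings moved by 0.10 with age in DMSO, 0.15 with age in rotenone, 0.21 with age over both treatments and 0.17 in the interaction, mir-63 stood at -1.01 to -0.83 with age in DMSO, mir-229 at -0.48 to -0.31 and mir-66 at 0.16 to 0.33. For mir-63 the interaction stood at 0.27 to 0.30 relative to it. Changes that were not called, such as mir-64 with age in DMSO (-0.03 to 0.12), could change sign. No paired analysis was possible because the labels carry no replicate numbers. Fits within lane L007 rest on 1 library in each day 5 group, and those within L006 on 1 in each day 15 group, assumed to vary like the others.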

Other observations

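Deviations of single libraries from their group means were compared as a description, over 12 libraries that share their scaling factors. Those of mir-64 and mir-65 had a Pearson's r of 0.77, and the other 9 pairs of members ranged from -0.29 for mir-63 and mir-65 to 0.54 for mir-64 and mir-229. How reads matching both mir-64 and mir-65 were assigned is not known, and its part in the 0.77 was not tested. Between mir-63 and mir-229, whose levels over all libraries had r = 0.98, the deviations had 0.47.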
